A study of Homo sapiens with 12 samples.

Results

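Readthrough rows are the rows of the count table that carry the joined names of a pair of genes, such as SENP3-EIF4A1. Members were chosen by name and by raw counts: the symbol held a single hyphen, both parts of the symbol also occurred as rows of their own, and the counts summed to 120 or more over the 12 libraries. Symbols starting with MT or HLA, and symbols of antisense, intronic, divergent or overlapping transcripts, were left out. Of 41878 rows, 133 met the name part of the rule and 86 of these had enough counts. Of the 47 rows under the minimum, 16 had no count at all. Because total counts chose the members, levels are given as a description. The members just inside the minimum were ST20-MTHFS with 148 counts, NDUFC2-KCTD14 with 131 and ANKRD62P1-PARP4P3 with 122, and the rows just outside were TSNAX-DISC1 with 117, ARL2-SNX15 with 112 and TRIM39-RPP21 with 111. Each member was compared with the rows of its upstream and downstream component genes, and the 3 rows together are called a trio.

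The libraries were made from polyadenylated RNA of HEK293T, a human cell line of embryonic kidney origin. The cells were transiently transfected with 1 µg of plasmid, either an empty vector or one carrying TRPML3, a cation channel of lysosomes and the product of MCOLN3. Each was then kept in 10% serum (fed) or in 0% serum for 4 h (starved). The 4 groups, vector fed, vector starved, TRPML3 fed and TRPML3 starved, had 3 libraries each, which the labels call biological replicates. All results concern this single line under plasmid overexpression, and the promoter of the plasmid is not given in the sources used here.

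Most human genes end when the nascent RNA is cleaved at a poly(A) signal and RNA polymerase II is released from the template. When cleavage is missed, the polymerase can run on into the next gene of the same strand, and splicing can join exons of both genes into a single readthrough RNA. Such an RNA often skips the last exon of the first gene, which holds its stop codon and poly(A) signal, and the first exon of the second, which has no acceptor splice site. Some readthrough RNAs encode fusion proteins. Others carry a premature stop codon and are substrates of nonsense-mediated decay, the cytoplasmic pathway that degrades such messages.

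The GENCODE 29 annotation of GRCh38, matched by Ensembl identifier, held 81 of the 86 members. In 78 of these the components lay on the same chromosome and strand in the order of the name, with a median gap of 5130 bp between them. The gaps ran from -105089 bp, an overlap (POC1B-GALNT4), to 573553 bp (IQCJ-SCHIP1), and 8 pairs of components overlapped. The remaining matched members included BORCS7-ASMT, whose row lay on chromosome 10 and overlapped BORCS7 and AS3MT, while the row named ASMT lay on chromosome X and had no counts, so its downstream row is not its neighbour. Of the 81, 73 were annotated as protein-coding genes, and 41 had at least 1 transcript of the nonsense-mediated decay class. Their 294 transcripts comprised 128 coding and 96 of the decay class.

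The exon joins of the annotated transcripts show how the pairs are fused. Of 78 trios, 66 had a transcript that spliced directly from an upstream exon to a downstream exon, 9 joined through other exons and 3 had no such join. In 60 of the 66 direct joins the acceptor was the start of the second exon of the downstream gene, in 48 the donor was the end of the penultimate exon of the upstream gene, and 46 had both. Second and penultimate here mean in any annotated transcript of the component gene. In 50 the bases on both sides were coding, some of them in transcripts of the decay class. A single join per trio was kept, the most direct, with a protein-coding transcript preferred among equals. That choice can raise the count of coding joins. The bridging intron had a median length of 19121 bp (784 to 122683). Below, 15 bases before the join from the upstream gene are in lower case and the 15 after it from the downstream gene are in capitals, read 5′ to 3′ on the RNA strand from the GENCODE 29 transcripts. The first 6 belong to members of high level or wide swings between libraries, JMJD7-PLA2G4B to a member of even level, and the last pair to a duplicated locus.
NME1-NME2: catacaagttggcagGACCATGGCCAACCT
BCL2L2-PABPN1: agcagtgggggctggGAGCTGGAAGCTATC
CFAP298-TCP10L: caagaggagctcaagCCATTACAGCAGCAG
BLOC1S5-TXNDC5: caggaacgaaaaaagGTGTGGACACTGCCA
HSPE1-MOB4: ggttctaaaggaaagGATTTCTATAATTGG
COMMD3-BMI1: aatcctactgggaagGATTTTTTATCAAGC
JMJD7-PLA2G4B: gaggccatggagaagGCAGAGGTGTCCAGG
SLX1A-SULT1A3: tcagaattagaagagGAACATGGAGCTGAT
SLX1B-SULT1A4: tcagaattagaagagGAACATGGAGCTGAT
The flanking exon bases of these joins lie at chr17:51161272-51166827 (+) for NME1-NME2, chr14:23308199-23322181 (+) for BCL2L2-PABPN1 and chr21:32582415-32602272 (-) for CFAP298-TCP10L. Those of BLOC1S5-TXNDC5 lie at chr6:7904723-8026367 (-), of HSPE1-MOB4 at chr2:197501238-197523624 (+), of COMMD3-BMI1 at chr10:22318306-22326431 (+) and of JMJD7-PLA2G4B at chr15:41836551-41840158 (+). The joins of SLX1A-SULT1A3 (chr16:30197357-30200725, +) and SLX1B-SULT1A4 (chr16:29458015-29461382, +) are identical in these letters, since the locus is duplicated. How reads shared by near-identical or overlapping genes were assigned is not given in the sources used here. Counts of these members, of the NME, RPS10 and RPL36A trios and of the BOLA2, NPIPB and AGAP family members are therefore uncertain.

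These joins matter for the counts because little else separates a member from its components. A median of 95.63% of a member's annotated exon bases also lay in exons of a component gene, and 23 of the 78 members had no exon base of their own. For those members only reads across a joining splice, or across some other splice that the components lack, could tell them from a component.

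As a check of the labels, MCOLN3 stood at 16.7 ± 3.11 CPM (counts scaled to a library total of 1e6, mean ± SD, n = 3) in vector fed and 11.3 ± 2.93 in vector starved libraries, against 16190 ± 18060 in TRPML3 fed and 36800 ± 19930 in TRPML3 starved libraries. The difference was 10.05 ± 1.04 (SE) on the log2 scale in fed cells (edgeR quasi-likelihood test, adjusted p = 0.0117) and 11.77 ± 1.10 without serum (adjusted p = 0.00914). Markers of HEK293 cells (VIM, KRT8, KRT18, NEFM, NEFL, PAX2 and CDH2) were above 3 counts in all 12 libraries and summed to 545 to 1007 CPM, while INS and HBB had no counts and 7 markers of other tissues summed to 0.24 to 2.47 CPM. Library totals ran from 33101540 to 43700547 counts, so 3 counts, taken as the detection floor, equal at most 0.0906 CPM. The mitochondrial share of counts was 4.83% to 5.70% in replicates 3 of the 4 groups and 1.05% to 2.52% in replicates 2. Its part in the results below was not tested.

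The 86 members together took 0.0787% ± 0.0179 (SD, n = 12) of library counts, with 0.0464% in vector fed replicate 3 as the lowest and 0.103% in vector fed replicate 1 as the highest. The 10 members with the most counts made up 61.6% of all member counts, and SENP3-EIF4A1 alone made up 17.2%. In these bulk libraries, fewer cells with a transcript and less of it per cell cannot be told apart. A member's share of its trio counts had a median of 7.70%. It was 50% or more in 8 members, under 10% in 49 and under 1% in 8. Per kilobase of annotated exon, the 78 placed members had a median level of 1.03 CPM per kb, their upstream genes 4.11 and their downstream genes 1.18. On that scale 21 members stood above their upstream gene, 34 above their downstream gene and 10 above both.

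**Figure D1:**
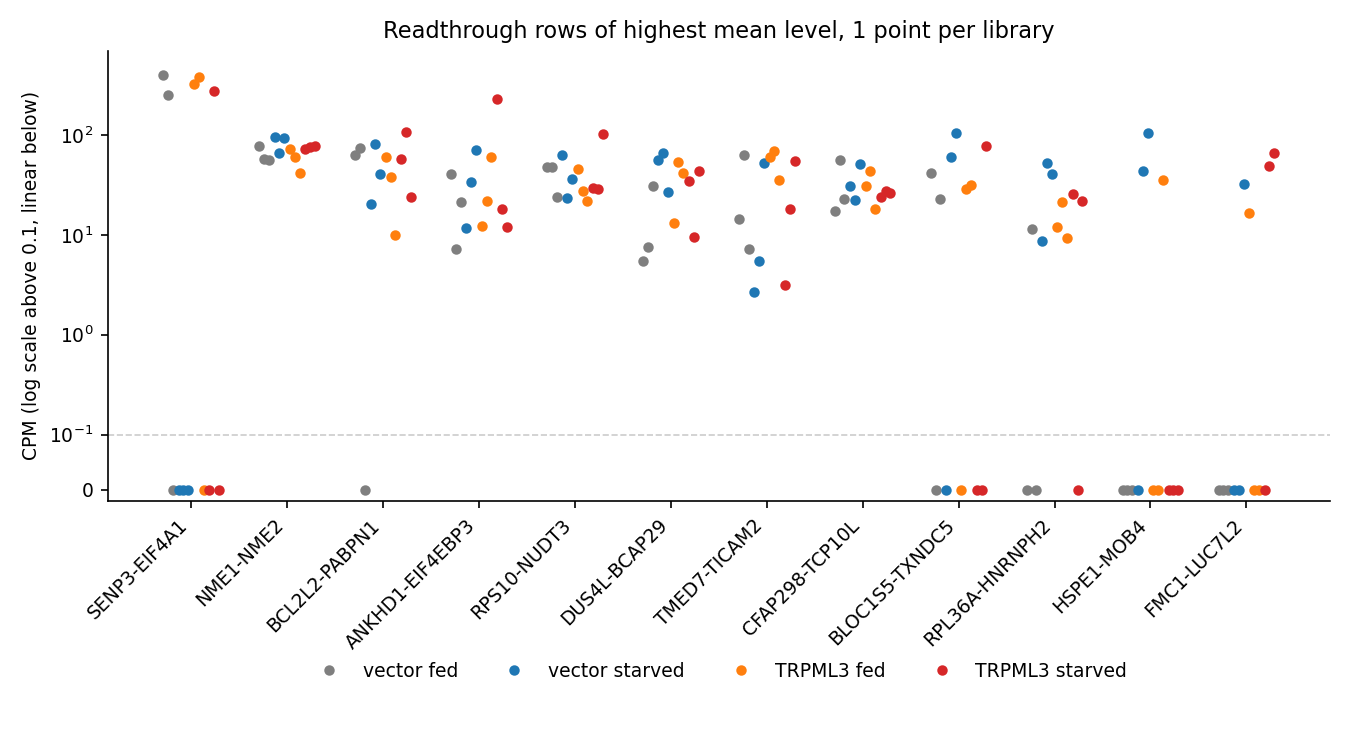
Levels of the 12 readthrough rows of highest mean CPM (vertical axis, CPM, log scale above 0.1 and linear below), with 1 point per library coloured by group. SENP3-EIF4A1 is at 0 in 7 libraries and NME1-NME2 in none.

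NME1-NME2 (ENSG00000011052) joins the genes of a pair of nucleoside diphosphate kinases, enzymes that balance the pools of nucleoside triphosphates. Its counts were 2674, 2391 and 1967 in vector fed libraries, 3916, 2411 and 4045 in vector starved ones, 2884, 2259 and 1370 in TRPML3 fed ones, and 2582, 2649 and 2921 in TRPML3 starved libraries, always in the order of replicates 1 to 3. Every library held it, within a 2.33-fold range of CPM, and it took 19.8% to 58.6% of the trio counts. Per kilobase it stood at 56.9 CPM per kb, above NME1 at 10.0 and NME2 at 27.8. That rank depends on annotated exon length, 1241 bp for the member, 3438 for NME1 and 2632 for NME2. Unscaled, its mean of 70.65 CPM was above NME1 at 34.38 and below NME2 at 73.26. Its level was 64.5 ± 12.2 CPM in vector fed and 84.9 ± 16.6 in vector starved cells, and 58.0 ± 15.6 in TRPML3 fed and 75.2 ± 3.17 in TRPML3 starved cells (SD, n = 3). Starved against fed, the log2 fold change was 0.45 ± 0.22 (SE) with the vector and 0.47 ± 0.22 with TRPML3, and neither passed the edgeR test (adjusted p = 0.9998 and 0.869).

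SENP3-EIF4A1 (ENSG00000277957, chr17:7563287-7578715) joins the gene of a SUMO protease to that of an RNA helicase that unwinds messages for translation initiation. GENCODE 29 gives it 1 transcript, of the nonsense-mediated decay class, which passes through 1 exon between the genes. Its counts were 13678, 10448 and 0 in vector fed libraries, 0 in each vector starved library, 12929, 14369 and 0 in TRPML3 fed ones, and 0, 9724 and 0 in TRPML3 starved libraries. The row was thus either at 0 or between 9724 and 14369 counts, and 3 of the 4 groups held libraries of both kinds. Replicate 3 was at 0 in each group. The EIF4A1 row held 13678, 16356 and 29883 counts in vector fed libraries, 32559, 53363 and 29443 in vector starved ones, 15509, 13785 and 31776 in TRPML3 fed ones, and 23436, 10712 and 41247 in TRPML3 starved libraries. Its 5 lowest counts were those of the 5 libraries in which the readthrough row was above 0. In vector fed replicate 1, the EIF4A1 row and the readthrough row held the same number, 13678, the only such equality at 100 or more counts between a member and a component. The trio sum varied least: the SD of log2(CPM + 0.1) over 12 libraries was 6.0 for the readthrough row, 1.96 for SENP3, 0.73 for EIF4A1 and 0.39 for the sum.

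DUS4L-BCAP29 joins the gene of a dihydrouridine synthase, a tRNA-modifying enzyme, to that of a membrane protein of the endoplasmic reticulum. Its counts were 185, 312 and 1063 in vector fed libraries, 2286, 2404 and 1182 in vector starved ones, 526, 2031 and 1365 in TRPML3 fed ones, and 1256, 335 and 1617 in TRPML3 starved libraries. The BCAP29 row held 1320, 1940 and 1332, then 269, 151 and 912, then 1821, 242 and 998, and lastly 1247, 1661 and 178 counts in the same order. Vector starved replicates 1 and 2, TRPML3 fed replicate 2 and TRPML3 starved replicate 3 held the 4 highest readthrough counts and the 4 lowest BCAP29 counts. The trio sum stayed between 2176 and 3167 counts while the readthrough share ran from 8.50% to 81.9%. The SD of log2(CPM + 0.1) was 1.22 for the readthrough row, 1.40 for BCAP29 and 0.17 for the sum.

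**Figure D2:**
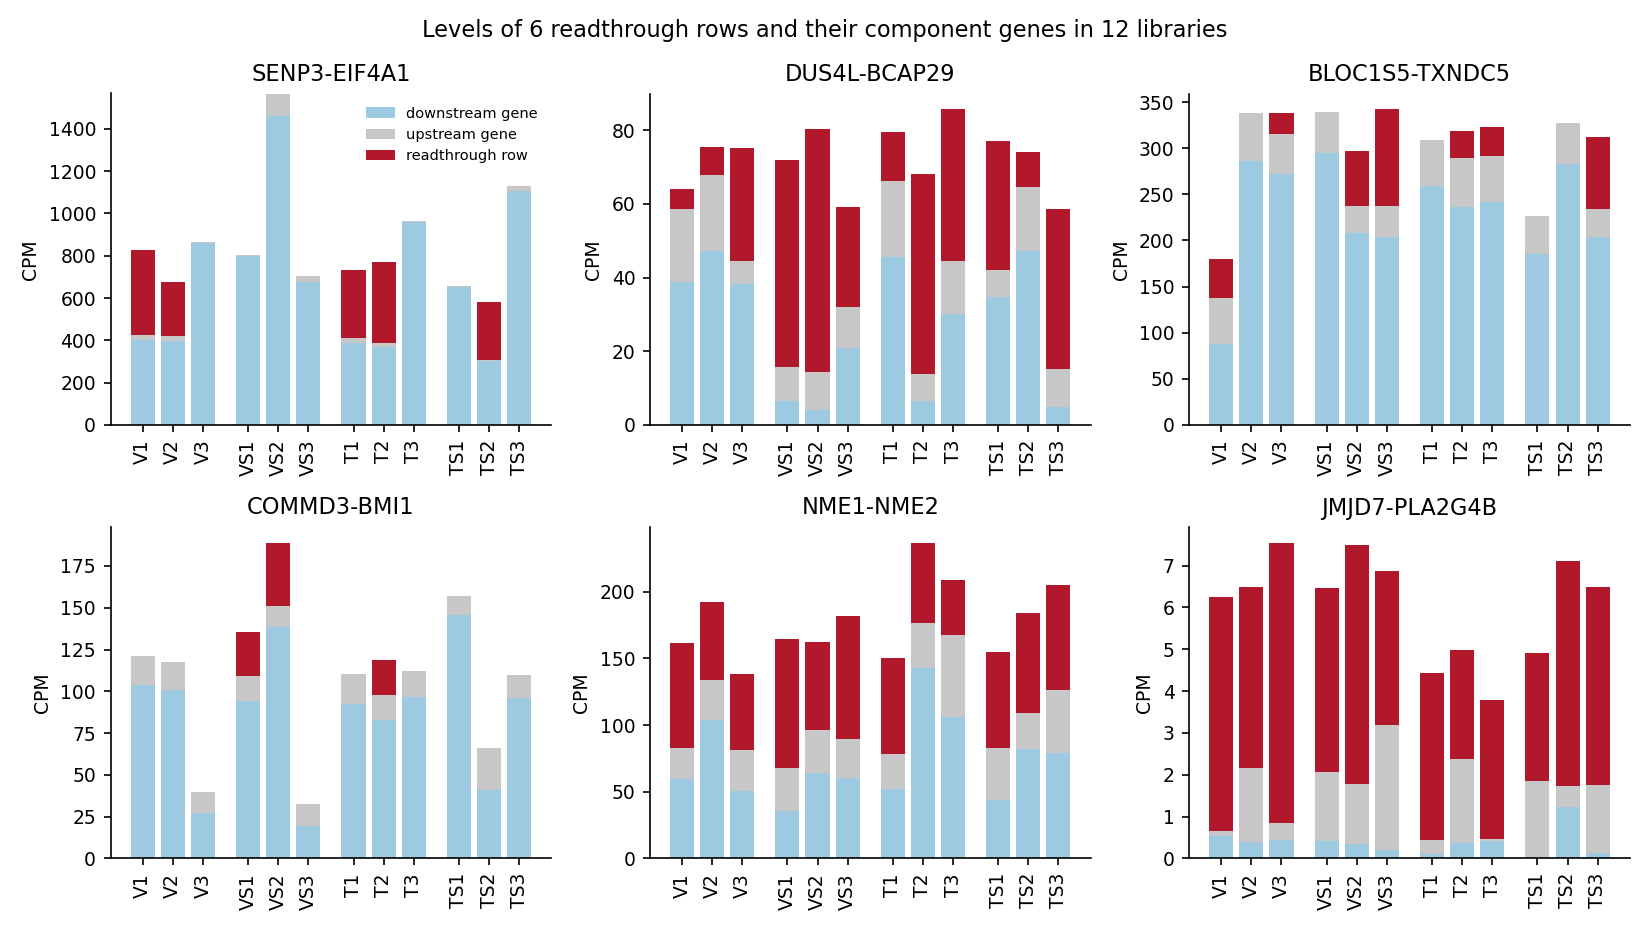
CPM of 6 trios in the 12 libraries, stacked as downstream gene, upstream gene and readthrough row (V, vector fed; VS, vector starved; T, TRPML3 fed; TS, TRPML3 starved; the number is the replicate). The bars of DUS4L-BCAP29 keep a similar height while the readthrough part runs from 8.50% to 81.9% of the trio counts.

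The other members of high level included some that were above 0 in every library. ANKHD1-EIF4EBP3 joins an ankyrin-repeat protein gene to that of a translation repressor, and had 1394, 296 and 740 counts in vector fed libraries, 477, 1235 and 3131 in vector starved ones, 495, 824 and 1976 in TRPML3 fed ones, and 8170, 642 and 444 in TRPML3 starved libraries. TRPML3 starved replicate 1 stood apart at 8170, and the ANKHD1 row there had 1252 counts against 4768 and 4156 in the other TRPML3 starved libraries. RPS10-NUDT3, named for a ribosomal protein and an inositol pyrophosphate hydrolase, ranged from 730 counts in TRPML3 fed replicate 3 to 3857 in TRPML3 starved replicate 3. TMED7-TICAM2, named for a secretory cargo receptor and an adaptor of Toll-like receptor 4, ranged from 110 in vector starved replicate 1 to 2603 in TRPML3 fed replicate 2. CFAP298-TCP10L, whose upstream gene serves ciliary motility, ranged from 590 in vector fed replicate 1 to 2335 in vector fed replicate 2. None of the 4 passed a test between groups.

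The remaining high members were at 0 in some libraries. BCL2L2-PABPN1, named for an anti-apoptotic BCL2 relative and a nuclear poly(A)-binding protein, had 2168, 3075 and 0 counts in vector fed libraries, 835, 2952 and 1770 in vector starved ones, 2419, 1438 and 334 in TRPML3 fed ones, and 2088, 3770 and 903 in TRPML3 starved libraries. BLOC1S5-TXNDC5 joins a gene for biogenesis of lysosome-related organelles to a disulfide isomerase gene. Its counts were 1437, 0 and 804 in vector fed libraries, 0, 2202 and 4570 in vector starved ones, 0, 1086 and 1057 in TRPML3 fed ones, and 0, 0 and 2912 in TRPML3 starved libraries, so that each group held libraries with and without it. BLOC1S5-TXNDC5 was above 0 in replicate 3 of each group and, among replicates 1, only in vector fed cells. RPL36A-HNRNPH2, named for a ribosomal protein and a splicing regulator, was at 0 in vector fed replicates 1 and 3 and in TRPML3 starved replicate 2, and reached 1934 in vector starved replicate 2.

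HSPE1-MOB4 joins the gene of the mitochondrial co-chaperonin to that of a subunit of the STRIPAK phosphatase complex. It had counts in 3 libraries only, with 1600 and 4590 in vector starved replicates 2 and 3 and 1177 in TRPML3 fed replicate 3. In vector starved replicate 3 MOB4 was at 3075 counts, its lowest of the 12 libraries. FMC1-LUC7L2, named for an assembly factor of the mitochondrial ATP synthase and a U1 snRNP-associated splicing factor, had 1413 counts in vector starved replicate 3, 663 in TRPML3 fed replicate 1, 1711 and 2450 in TRPML3 starved replicates 2 and 3, and none in the other libraries. COMMD3-BMI1, whose downstream gene encodes a Polycomb subunit, had 1083 and 1382 counts in vector starved replicates 1 and 2 and 787 in TRPML3 fed replicate 2, and 1 to 5 counts elsewhere. POC1B-GALNT4, named for a centriole protein and an enzyme that starts O-glycosylation, had 1168, 1032 and 916 counts in vector fed libraries, 7, 703 and 0 in vector starved ones, 20, 955 and 0 in TRPML3 fed ones, and 0, 0 and 504 in TRPML3 starved libraries.

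This pattern was common among the members. A row was counted as switching when a library held at most 3 of its counts and another held 100 or more. Of the 86 members 40 did so (46.5%), against 491 of all 16912 rows with at least 120 counts (2.9%) and 6 of 145 component rows with as many counts (4.14%). Between libraries of the same group, which share plasmid and serum, 34 members switched (39.5%), against 395 of the 16912 rows (2.34%). In 19 members the switch occurred inside 2 or more groups. In replicate 3 of each group, SENP3-EIF4A1 was at 0 and BLOC1S5-TXNDC5 was above 0. In the other replicate numbers, each of these rows was at 0 in some groups and above 0 in others. Whether switches follow the replicate number was not tested. A library at 0 occurred in 48 members, and in 12 members a whole group was at 0. Leaving out any single library left 36 to 40 switching members.

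Some members drew most of their counts from a single library. A library held at least 50% of all counts in 13 members (86 in all), against 0.479% of the 16912 rows. The members named here for that share were chosen after their values were seen. All 188 counts of INMT-MINDY4 came from TRPML3 fed replicate 3. DNAAF4-CCPG1 had 96.0% of its counts in vector starved replicate 1, STIMATE-MUSTN1 93.5% in TRPML3 starved replicate 3, RAB4B-EGLN2 91.1% in TRPML3 fed replicate 2 and MSH5-SAPCD1 90.9% in vector starved replicate 3. PPAN-P2RY11, joining a ribosome biogenesis gene to a purinergic receptor gene, had 620 of its 826 counts in vector starved replicate 3. That library held the highest CPM of 17 members (19.8%) and of 12.1% of rows with at least 120 counts, TRPML3 fed replicate 1 that of 3.49% of members and 10.7% of rows, and TRPML3 starved replicate 2 that of 3.49% and 4.94%.

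The spread of the members exceeded that of their components and of the trio sums. The median SD of log2(CPM + 0.1) over the 12 libraries was 1.55 for the members, 0.54 for upstream genes, 0.58 for downstream genes and 0.42 for trio sums. Over all rows with at least 120 counts it was 0.52. Within groups the medians were 1.56 for members and 0.39 for trio sums. The sum varied less than the readthrough row in 83 of 86 trios, the exceptions being PDXDC2P-NPIPB14P, STON1-GTF2A1L and BMS1P4-AGAP5. It varied less than each of its 3 rows in 47 trios, and in 21 of the 37 trios in which the member took at least 10% of the counts. In the 49 trios with a share under 10%, the sum was mostly component counts. There, a sum steadier than the readthrough row follows in large part from its make-up. The SDs were not matched for level. The 38 members with no library at 0 had a median fold range of 9.23 (2.33 for NME1-NME2 to 1330 for COMMD3-BMI1), and their trio sums one of 2.49.

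**Figure D3:**
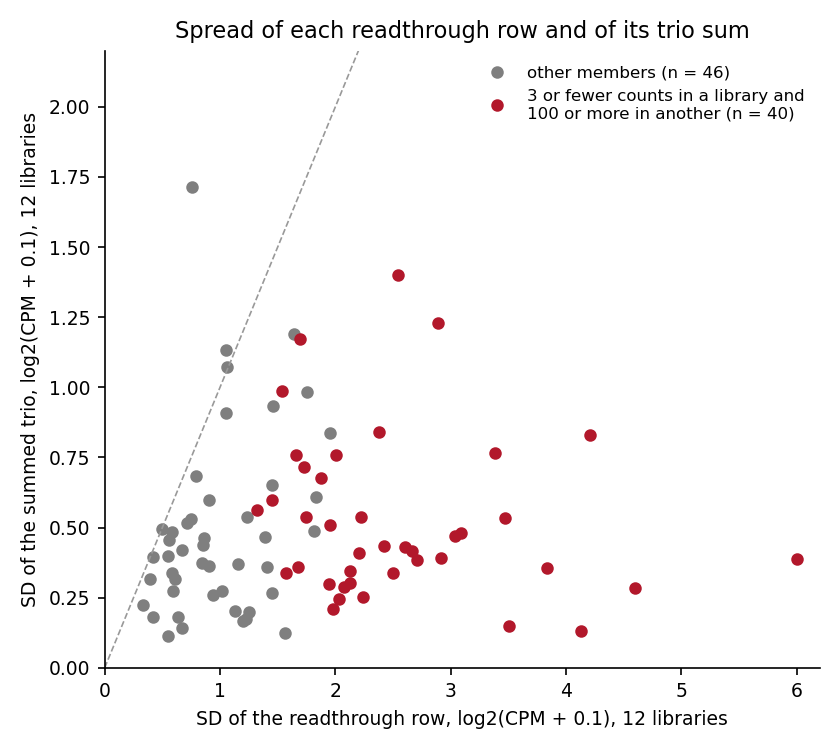
SD of log2(CPM + 0.1) over 12 libraries of each readthrough row (horizontal) against that of its trio sum (vertical), 1 point per member, with the line of equality dashed. Of the 86 points 83 lie below the line, and the 40 switching members are in red.

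Members with more exon sequence of their own were steadier. The 23 members with no own exon base had a median SD of 1.98 and 15 switched. The 40 with own bases in up to 25% of their exons had a median SD of 1.43 and 18 switched, and the 15 with 25% or more had a median SD of 0.71 and 2 switched (CENPS-CORT and IQCJ-SCHIP1). Across the 78 members, Spearman's rho between the own share and the SD was -0.53, a description only, since the members share their libraries and their median totals differed between the classes (2943, 1162.5 and 1897 counts). NME1-NME2, with no own base and an SD of 0.33, went the other way. The row named TIMM23B-AGAP6, at 81.6% and an SD of 1.84, is the point farthest to the right. Its identifier belongs in GENCODE 29 to LINC00843, a long noncoding RNA gene with no exon base in AGAP6 and no join, so its own share and its level per kilobase describe that record and not a readthrough. Among the 77 members with a readthrough-tagged transcript, rho was -0.55 and the median SD of the 14 with 25% or more own bases was 0.68.

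**Figure D4:**
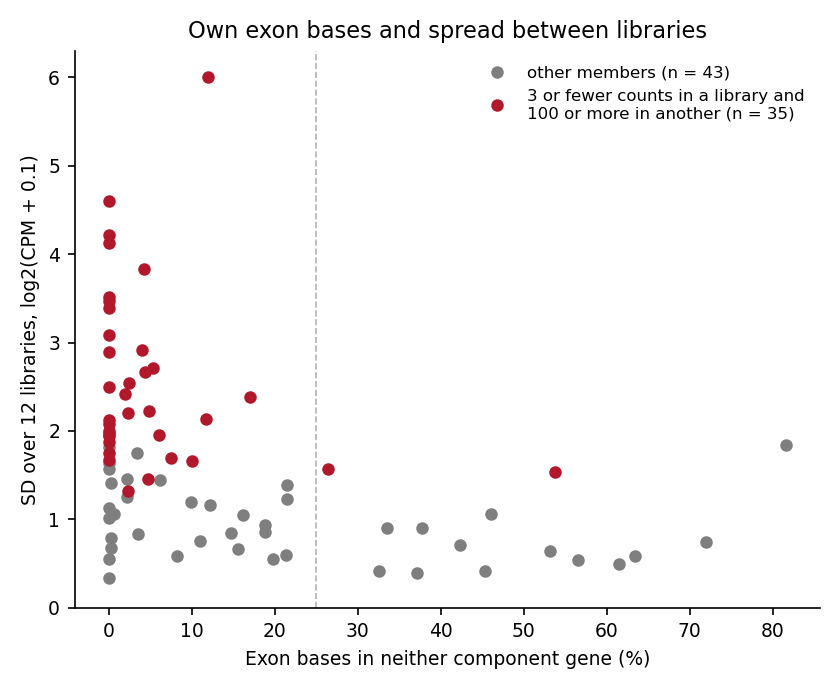
Percent of a member's annotated exon bases in neither component gene (horizontal) against the SD of its log2(CPM + 0.1) over 12 libraries (vertical), for 78 members; switching members in red, 25% dashed. Right of the dashed line 2 of 15 members switch.

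Among the 8 members that took 50% or more of the trio counts, 5 had counts within a 4.24-fold range of CPM. TEN1-CDK3, named for a telomere-capping CST subunit and a cell-cycle kinase, took 81.7% of the trio counts and ranged from 82 to 252 counts over the 12 libraries. JMJD7-PLA2G4B, named for a lysyl hydroxylase and a phospholipase A2, took 72.9% with 98 to 233 counts. BOLA2-SMG1P6, whose upstream gene serves iron-sulfur cluster handling, took 62.5% with 124 to 322 counts. The sulfotransferase members SLX1A-SULT1A3 and SLX1B-SULT1A4 took 80.1% and 63.9% with 83 to 751 and 71 to 335 counts. PDXDC2P-NPIPB14P, made of a pair of pseudogenes, took 77.0% and ranged from 61 to 632. The CPM range was 9.43-fold in SLX1A-SULT1A3 and 11.1-fold in PDXDC2P-NPIPB14P, above the median of the members with no library at 0. SUGT1P4-STRA6LP, chosen after its values were seen, took 99.0% of the trio counts at a total of 391. Some of these shares stand beside nearly empty component rows. Over the 12 libraries SMG1P6 had no counts, NPIPB14P had 1, and SUGT1P4 and STRA6LP had 2 each. By the rule used here, no join from an upstream to a downstream exon was found for BOLA2-SMG1P6 or SUGT1P4-STRA6LP. Their annotated transcripts nonetheless carry a readthrough tag. ANKRD62P1-PARP4P3, at the minimum total, took 65.6% and was at 0 in 2 libraries, the only one of the 8 with such a library.

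The design asks whether TRPML3 expression, serum withdrawal or their combination alters these rows. No readthrough row differed between groups in any of the 5 contrasts at an adjusted p under 0.05 in the edgeR quasi-likelihood test, which 81 of the 86 members entered. Over all 18030 rows tested, 2 passed for TRPML3 against vector in fed cells (0.0111%), 1 without serum (0.00555%), 1 for starved against fed in vector cells (0.00555%), and none for starved against fed in TRPML3 cells (0.0%) or for the interaction (0.0%). The smallest adjusted p among members was 0.953, 1.0, 0.9998, 0.819 and 0.9999 in that order. The 146 component rows tested gave no call either. At an unadjusted p under 0.05 the members passing were 6 for TRPML3 against vector in fed cells (7.41%, all rows 2.21%), 9 without serum (11.1%, all rows 2.2%), 13 for starved against fed in vector cells (16.0%, all rows 4.44%), 4 in TRPML3 cells (4.94%, all rows 5.71%) and 7 for the interaction (8.64%, all rows 2.07%). By direction, 3 were higher and 3 lower in the first of these (all rows 0.998% and 1.21%), 3 higher and 6 lower in the second (1.09% and 1.11%), 8 and 5 in the third (2.23% and 2.21%), 3 and 1 in the fourth (2.74% and 2.97%), and 3 and 4 for the interaction (1.16% and 0.915%). The DESeq2 Wald test gave 3, 5, 7, 1 and 5 member calls of 77 with an adjusted p, against 0.16%, 0.153%, 0.19%, 0.364% and 0.126% of all rows. These calls fell on 8 members, SENP3-EIF4A1, HSPE1-MOB4, FMC1-LUC7L2, COMMD3-BMI1, MSANTD3-TMEFF1, TRIM6-TRIM34, ZNF559-ZNF177 and UBE2F-SCLY.

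The median log2 fold change of members was -0.10 for TRPML3 against vector with serum and -0.34 without it, 0.22 for starved against fed with the empty vector and 0.14 with TRPML3, and -0.23 for the interaction. Those of all rows lay between -0.01 and 0.01. These medians rest on rows of wide error, since the median SE of a member's log2 fold change was 1.21 to 1.23 in the first 4 contrasts against 0.45 for all rows. Among only rows with at least 10 counts in every library, they were -0.002 for TRPML3 against vector in starved cells, 0.053 and 0.001 for the starvation contrasts and 0.12 for the interaction. Under that filter, the median for TRPML3 against vector in fed cells is not given here. The contrasts share groups, so their medians are not independent.

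Several members called by DESeq2 are those that are at 0 in a whole group, where the fold is only bounded by the floor of 3 counts per library. SENP3-EIF4A1 at 219 ± 203 CPM in vector fed cells was at least 2920-fold above vector starved cells, where no library had a count, and at 92.1 ± 160 CPM in TRPML3 starved cells at least 1230-fold above them. HSPE1-MOB4 at 49.6 CPM in vector starved cells was at least 601-fold above vector fed and 597-fold above TRPML3 starved cells, yet vector starved replicate 1 had no count. FMC1-LUC7L2 was at least 131-fold higher in vector starved and 67.1-fold higher in TRPML3 fed than in vector fed cells, each on the counts of 1 library. MSANTD3-TMEFF1, whose downstream gene encodes a transmembrane protein of the follistatin-related kind, had 0, 0 and 629 counts in vector fed libraries, none in vector starved ones, 31, 110 and 316 in TRPML3 fed ones, and 0, 48 and 396 in TRPML3 starved libraries. Vector fed and TRPML3 starved cells were at least 80.7-fold and 53.4-fold above vector starved cells. In each of the comparisons in this group of 4 rows the higher group also held a library at 0, so the groups overlapped.

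Further members lay at the extremes of a contrast. BORCS7-ASMT, whose upstream gene encodes a subunit of the complex that moves lysosomes, had 750, 0 and 122 counts in vector fed libraries, 111, 387 and 0 in vector starved ones, none in TRPML3 fed ones, and 0, 12 and 0 in TRPML3 starved libraries. Vector fed cells were at least 104-fold above TRPML3 fed cells (adjusted p = 1.0). IFNAR2-IL10RB, named for subunits of the interferon and interleukin-10 receptors, had 10, 944 and 0 counts in vector fed libraries, 178, 839 and 1 in vector starved ones, 0, 0 and 2 in TRPML3 fed ones, and 575, 392 and 2 in TRPML3 starved libraries. BIVM-ERCC5, whose downstream gene encodes a DNA repair endonuclease, had 657 of its counts in vector fed replicate 2 and 231 in TRPML3 starved replicate 1. COMMD3-BMI1 had an interaction of -14.8 ± 3.66 on the log2 scale (adjusted p = 0.9999), which rests on the 3 libraries named above.

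The 4 members described next were chosen after their values were seen, for even levels within groups beside a small unadjusted p. P2RX5-TAX1BP3 (ENSG00000257950, chr17:3663063-3696194) joins an ATP-gated channel gene to a PDZ protein gene, and 53.2% of its exon bases are its own. Its level was 4.11, 5.02 and 5.36 CPM with vector and serum, 8.04, 10.6 and 11.1 with vector and no serum, 6.49, 3.02 and 5.17 with TRPML3 and serum, and 11.3, 12.3 and 6.65 with TRPML3 and no serum. Fed and starved libraries did not overlap with either plasmid. The edgeR log2 fold change was 1.08 ± 0.35 (SE) in vector cells (adjusted p = 0.9998) and 1.12 ± 0.35 in TRPML3 cells (adjusted p = 0.819), and neither passed. The interaction was 0.04 ± 0.48. TAX1BP3 stood at -0.25 ± 0.30 and -0.30 ± 0.30 and P2RX5 at 0.59 ± 0.54 and 0.50 ± 0.55 in the same contrasts. In the trio, the readthrough share was 23.6% to 35.6% in vector fed libraries, 46.5% to 53.8% in vector starved ones, 19.3% to 45.7% in TRPML3 fed and 39.4% to 63.6% in TRPML3 starved libraries.

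FPGT-TNNI3K, which joins a fucose-salvage enzyme gene to a cardiac kinase gene and has 63.5% own exon bases, stood at 1.45 ± 0.53 CPM in vector fed libraries, 3.26 ± 0.62 in vector starved ones, 3.02 ± 0.20 in TRPML3 fed and 2.91 ± 0.80 in TRPML3 starved cells (SD, n = 3). The vector fed libraries, at 0.853 to 1.87 CPM, were below each of the other 9, which lay at 2.07 to 3.94. The log2 fold change against vector fed was 1.21 ± 0.36 (SE) with starvation (adjusted p = 0.9998) and 1.12 ± 0.36 with TRPML3 (adjusted p = 1.0). ZNF559-ZNF177, of a pair of zinc finger genes, went the other way, with 6.78 ± 2.74 CPM in vector fed libraries, 1.53 ± 0.46 in vector starved ones, 1.93 ± 0.58 in TRPML3 fed and 1.48 ± 1.01 in TRPML3 starved cells. Its lowest vector fed library, at 4.87 CPM, was above the highest of the others, at 2.61. The log2 fold change was -2.09 ± 0.52 with starvation in vector cells (adjusted p = 0.9998; DESeq2 adjusted p = 0.0412) and -1.72 ± 0.51 with TRPML3 in fed cells (adjusted p = 1.0). Both comparisons of each row share the vector fed libraries. ZNF559 itself had -0.93 ± 0.68 and -0.26 ± 0.67, and FPGT -0.05 ± 0.34 and -0.27 ± 0.34.

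TRIM6-TRIM34, which joins genes of a pair of ubiquitin ligases, had no counts in the 3 vector fed libraries, 50, 33 and 36 in vector starved ones, 37, 47 and 37 in TRPML3 fed ones, and 12, 14 and 0 in TRPML3 starved libraries. Against the floor of 3 counts, vector starved cells were at least 11.9-fold and TRPML3 fed cells at least 13.3-fold above vector fed cells. The edgeR adjusted p was 0.953 for TRPML3 against vector in fed cells and 0.9998 for starved against fed in vector cells. Without TRPML3 starved replicate 3, the library at 0, the edgeR adjusted p-values were 0.0208 and 0.0369. That library belongs to neither contrast, and the log2 fold changes hardly moved (8.394 against 8.38, and 8.207 against 8.195). The share of all rows called without that library is not given here. With all libraries, the DESeq2 Wald test gave adjusted p-values of 9.03e-05 and 2.00e-04. The row has no exon base of its own, and TRIM6 held 742, 599 and 321 counts in the vector fed libraries. UBE2F-SCLY, also chosen after its values were seen but uneven within groups, is named for a NEDD8-conjugating enzyme and selenocysteine lyase, and had 0, 0 and 4 counts in vector starved and 290, 15 and 57 in TRPML3 starved libraries (log2 fold change 6.65 ± 1.77, SE; adjusted p = 1.0).

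**Figure D5:**
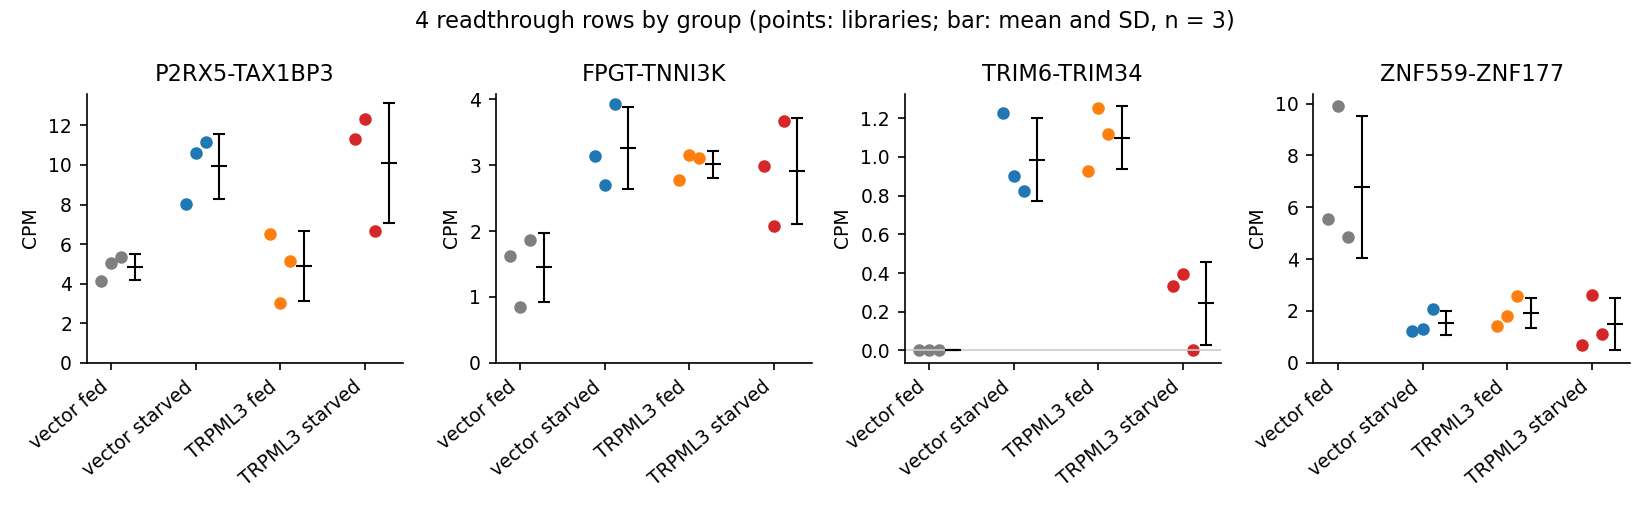
CPM of P2RX5-TAX1BP3, FPGT-TNNI3K, TRIM6-TRIM34 and ZNF559-ZNF177 by group; points are libraries and bars the mean and SD (n = 3). TRIM6-TRIM34 has no counts in the vector fed group, and ZNF559-ZNF177 is highest there at 6.78 CPM.

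The ratio of a member's counts to those of its components, log2 of (readthrough + 1)/(both components + 1), was tested for the 12 members of highest level, starved against fed within plasmid and TRPML3 against vector within serum state, by an exact two-sided permutation test with 400 arrangements (smallest possible p = 0.005). None of the 24 tests passed 0.05. The smallest exact p-values were those of FMC1-LUC7L2 for TRPML3 against vector, with a mean difference in this log2 ratio of 4.10 (p = 0.07), NME1-NME2 for starved against fed, with 0.68 (p = 0.095), and SENP3-EIF4A1 for starved against fed, with -7.46 (p = 0.1). Adjusted by Benjamini-Hochberg over the 24 tests, each of these 3 exact tests had p = 0.8. These arrangements ignore the pairing of same-numbered libraries. The next test kept it in fed libraries only and permuted starved libraries freely. Same-numbered starved libraries correlated about as much (0.0949 to 0.316, against 0.112 to 0.326 in fed cells), and a test with both blocked was not run. With plasmid labels swapped only within same-numbered fed libraries (160 arrangements, smallest possible p = 0.0125), none of the 12 exact tests of TRPML3 against vector was under 0.05; NME1-NME2 had -0.55, lower in 3 of 3 fed pairs (p = 0.05), and FMC1-LUC7L2 4.10 (p = 0.075), both with an adjusted p = 0.45 over the 12. SENP3-EIF4A1 passed 0.05 unadjusted when vector fed replicate 3 (-9.87), TRPML3 fed replicate 3 (-9.92) or TRPML3 starved replicate 2 (-9.92) was left out, and NME1-NME2 when TRPML3 fed replicate 1 (0.95) was.

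Genes of the machinery that ends, splices or degrades such RNAs were compared in the same fit, in 4 lists of 20 cleavage and polyadenylation, 17 transcription termination, 12 U1 snRNP and splice site and 18 nonsense-mediated decay genes. None of these genes passed the adjusted threshold in any contrast. The decay list had a median log2 fold change of 0.28 for starved against fed with the empty vector and 0.32 with TRPML3, with 2 and 3 of 18 genes at an unadjusted p under 0.05, all higher, against 2.23% and 2.74% of all rows. Its lowest genes there were SMG6 with the vector (-0.527 ± 0.811, SE) and SMG1 with TRPML3 (-1.885 ± 1.607). At that threshold the termination list had 3 of 17 higher and 1 lower with the vector, and 1 higher and 2 lower with TRPML3 (all rows lower, 2.21% and 2.97%). The cleavage list had 1 higher with the vector and 1 lower with TRPML3, and the splice site list 1 higher with each. UPF3A, a link between exon junction complexes and the decay machinery, had 1.66 ± 0.52 (SE) in TRPML3 cells (adjusted p = 0.819). SMG1, the kinase of UPF1, had 4.21 ± 1.78 for TRPML3 against vector in fed cells (adjusted p = 1.0). In the termination list, INTS1, the scaffold of the Integrator complex, had -5.06 ± 1.31 for TRPML3 against vector in starved cells (adjusted p = 1.0), and XRN2, the exonuclease that chases the polymerase after cleavage, had 1.09 ± 0.38 in fed cells (adjusted p = 1.0). In the cleavage list, CSTF2, which binds downstream of the poly(A) signal, had 0.92 ± 0.30 for starved against fed in vector cells, and PAPOLG, a poly(A) polymerase, -1.17 ± 0.52 in TRPML3 cells (adjusted p = 0.9998 and 0.869). SF1, the branch point-binding protein of the splice site list, had 1.01 ± 0.44 for starved against fed in vector cells (adjusted p = 0.9998), and LUC7L2, also a component of a member, had 1.19 ± 0.65 in TRPML3 cells (adjusted p = 0.885).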

How the data were processed

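Raw counts per gene row, whole numbers with an Ensembl identifier and a symbol, were deposited by the authors for 12 libraries. The other deposited table gives a normalized signal, the count divided by a factor constant within a library. The submitters' processing notes name FastQC, fastp, HISAT2, StringTie, DESeq2 and GRCh38 without role or version. The annotation release, the use of strand and the treatment of shared reads are not given in the sources used here, so the counts may be rounded estimates, and a read shared by a readthrough row and its components could be placed in any of them. Groups and replicate numbers come from the titles.

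Counts were tested with edgeR 4.0.16 in R 4.3.3 (TMM, filterByExpr on group, robust quasi-likelihood fit of all 12 libraries, 5 contrasts, Benjamini-Hochberg over 18030 rows, threshold 0.05), after a check on simulated data. The check had a pass condition only at a biological coefficient of variation of 0.1, against a common value of 0.527 in these data. It therefore does not show how well differences are recovered at the spread of these libraries. The edgeR p-values set a difference between groups against the spread among these replicates, estimated over all 4 groups and moderated across rows. Each SE of an edgeR log2 fold change is its absolute value divided by the square root of the F statistic. It is not a fitted standard error. Alternatives were DESeq2 1.42.0, its size factors, library size only, no filter, 10 counts in every library, limma-trend (limma 3.58.1) on log2(normalized signal + 1), the replicate block, trios merged to 1 feature, member minimums of 60 and 240 counts, and left-out libraries; alternatives for the share tests were chosen after seeing the data. Deviations from group means of same-numbered vector and TRPML3 libraries correlated at 0.112, 0.145 and 0.326 in fed cells, taken as pairing, and at 0.131, 0.0949 and 0.316 in starved cells; fed and starved libraries gave -0.0757 to 0.00748. No pair of libraries agreed within counting noise. Spreads are SDs of log2(CPM + 0.1). Exons and joins come from GENCODE 29, and no protein sequence was used.

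The members, gene lists and naming rule were chosen with earlier results of these data known. Named were MCOLN3, the 12 members of highest mean CPM, the 6 of highest trio share at 1 CPM or more, the 6 of largest SD, the 2 highest and 2 lowest log2 fold changes in each contrast, any row passing the threshold, the 3 rows on each side of the minimum total, and list genes at the ends of a list.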

Additional observations from a re-analysis of the deposited data

How the results depend on the processing

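The DESeq2 Wald test gave 3, 5, 7, 1 and 5 member calls in the 5 contrasts (TRPML3 against vector with and without serum, starved against fed with the vector and with TRPML3, interaction), where edgeR gave none; the cause was not tested. Without TRPML3 starved replicate 3, edgeR called 1 member, TRIM6-TRIM34, in the first and in the third contrast, and leaving out other replicates gave 0, so the range was 0 to 1. That library belongs to neither contrast, and the share of all rows called in that fit is not given here. The replicate block changed no call and gave 0 calls in each contrast. The median log2 fold change of members in starved cells, TRPML3 against vector, was -0.34, and -0.002 with 10 counts in every library, -0.20 with the replicate block, 0.027 with trios merged and -0.68 to -0.10 with replicates left out. For starved against fed in vector cells it was 0.22, and 0.053 with 10 counts, -0.0 with trios merged and 0.002 to 0.41 with replicates left out. In TRPML3 cells it was 0.14, and 0.001 with 10 counts, 0.011 with the block, -0.12 with limma-trend, -0.014 at a minimum total of 240 and -0.20 to 0.21 with replicates left out. The interaction median was -0.23, and -0.36 with DESeq2, 0.12 with 10 counts, -0.027 with the block, -0.006 with limma-trend, 0.029 with trios merged and -0.47 to 0.29 with replicates left out. For TRPML3 against vector in fed cells, the medians under the alternatives are not given here. Leaving out replicates took the log2 fold change of COMMD3-BMI1 for starved against fed TRPML3 cells from -7.76 to 0.86, positive without TRPML3 fed replicate 2, and the interaction of SENP3-EIF4A1 from -0.16 to 15.29, negative without TRPML3 starved replicate 2. The members' share of library counts, the median trio share, the 40 switching members and the 83 steadier trio sums moved by less than the spread or 1.5 times under the alternatives run. Trios merged gives no value for a single row, and counts of 1 to 3 in a library are at the floor.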
